A study of Mus musculus with 4 samples.

Results

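The genes described here are 10 rapid-response genes of mouse epidermis: the AP-1 genes Fos, Fosb, Fosl1, Jun, Junb and Jund, and the related immediate early genes Egr1, Atf3, Ier2 and Zfp36. They were taken by gene name from a table of 56493 genes, and all 10 were found. The series compared 2 libraries of knockout mice with 2 libraries of control mice. The knockout mice (cKO) had lost both Stim1 and Stim2 in epithelium through a Cre recombinase driven by the keratin 14 (K14) promoter, and the control mice carried the floxed Stim1 and Stim2 alleles (F/F, Stim1/2fl/fl). The floxed alleles are therefore common to both groups. Whether the controls carried Cre, and the strain, age and sex of the mice, are not given in the sources used here. The K14 promoter is active in epithelial cells, so Langerhans cells and T cells of the epidermal sheet should keep both genes. Loss of the 2 genes was not measured by cell type. Dorsal epidermis was lifted from the dermis by a 20 min soak in sodium thiocyanate before RNA was extracted. No label says that the 2 libraries of a group came from separate mice, so the p-values measure only the spread between these samples, which may be technical. With 2 libraries against 2, an exact two-sided permutation test of a single value cannot give a p below 0.333.

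AP-1 is a pair of basic leucine zipper proteins that binds DNA, usually a Jun protein with a Fos protein or with another Jun. Immediate early genes are transcribed within minutes of a stimulus without new protein synthesis, and most of their mRNAs are short-lived. Calcium entry is among the stimuli that induce Fos, through CREB bound to cAMP response elements (CRE) and through serum response factor. STIM1 and STIM2 are the calcium sensors of the endoplasmic reticulum that open store-operated channels. In epidermis AP-1 proteins act on genes of differentiation and of the response to wounding.

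Of the 10 genes, 7 had an entry in the RefSeq promoter table (GRCm38.p6): Fos, Fosb, Jun, Junb, Jund, Atf3 and Zfp36. The 5 windows below, of Fos, Fosb, Junb, Atf3 and Jun, are those of the 7 with a match to the short elements named next. Each holds the 200 bases before the annotated start, 5′ to 3′ on the gene's strand, with matches to the CRE half-site TGACG (either strand) or to the element TGACNTCA (either strand) in capitals. In Fosb the last 6 bases, and in Atf3 the last 7, lie in an exon of another transcript of the same gene in GENCODE M21.
Fos (chr12:85473690-85473889, plus strand): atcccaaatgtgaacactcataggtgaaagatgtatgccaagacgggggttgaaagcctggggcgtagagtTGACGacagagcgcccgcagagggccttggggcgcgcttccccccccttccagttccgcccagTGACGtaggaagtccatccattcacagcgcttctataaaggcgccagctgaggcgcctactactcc
Fosb (chr7:19310046-19310245, minus strand): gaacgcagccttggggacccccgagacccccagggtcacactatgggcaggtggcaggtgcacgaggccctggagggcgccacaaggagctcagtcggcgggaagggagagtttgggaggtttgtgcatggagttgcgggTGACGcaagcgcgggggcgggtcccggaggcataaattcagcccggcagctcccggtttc
Junb (chr8:84978749-84978948, minus strand): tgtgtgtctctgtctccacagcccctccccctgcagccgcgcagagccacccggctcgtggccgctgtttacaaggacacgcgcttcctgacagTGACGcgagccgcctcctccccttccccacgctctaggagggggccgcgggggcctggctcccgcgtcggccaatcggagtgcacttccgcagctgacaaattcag
Atf3 (chr1:191183334-191183533, minus strand): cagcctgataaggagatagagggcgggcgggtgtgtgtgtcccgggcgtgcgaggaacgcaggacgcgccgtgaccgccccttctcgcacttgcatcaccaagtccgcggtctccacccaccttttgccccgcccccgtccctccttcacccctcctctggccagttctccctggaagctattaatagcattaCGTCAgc
Jun (chr4:95052223-95052422, minus strand): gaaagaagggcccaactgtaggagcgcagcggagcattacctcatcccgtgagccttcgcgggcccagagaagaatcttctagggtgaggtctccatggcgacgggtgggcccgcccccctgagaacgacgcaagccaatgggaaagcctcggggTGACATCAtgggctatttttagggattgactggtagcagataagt
The half-site occurred in 4 of the 7 windows, those of Fos, Fosb, Junb and Atf3, and in 15.7% of 32505 distinct promoter windows of the same length. The Fos window held it at -129 and at -66 from the start, Fosb at -60, Junb at -106 and Atf3 at -7. The Jun window held no half-site but a TGACNTCA match (TGACATCA) at -45, an element present in 6.56% of all windows. The full CRE, TGACGTCA, which contains the half-site, was in none of the 7 windows and in 1.48% of all windows. A CArG box, the element of serum response factor, was found in the Zfp36 window alone of the 7, at -58, and in 1.19% of all windows. The entire Zfp36 window overlaps annotated Zfp36 exons. A match is a description of letters, not of a bound site, and the windows are short. No link between the matches and the counts was tested.

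The libraries were shallow, and cKO replicate 2 stood apart from the other 3. Total counts ran from 118858 (cKO replicate 2) to 322426, and 3 counts, the upper limit where none was found, equalled 9.58 to 33.7 CPM (counts scaled to library size after TMM normalisation). The 20 most abundant genes held 31.8% of the counts of cKO replicate 2 and 17.1% to 23.0% of those of the others. As a check of the labels, Stim1 counts were 23 and 6 (cKO) against 24 and 62 (control), and Stim2 counts were 0 and 1 against 3 and 18. On the CPM scale Stim1 was lower in each cKO library than in each control library, as were 19.6% of tested genes. For Stim2 the depth of cKO replicate 2, where even 0 counts allow 33.7 CPM, does not separate it from control replicate 1 (16.0 CPM). Neither gene passed the test (edgeR adjusted p 0.671 for Stim1 and 0.631 for Stim2, the latter added to the tested genes).

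None of the 10 genes passed the test between cKO and control. The count filter kept 6 of them (Fos, Egr1, Jun, Junb, Jund and Ier2), and of these 0 were called at an adjusted p under 0.05 (edgeR quasi-likelihood test with Benjamini-Hochberg adjustment over 4243 genes), where the background was 0.848% of the tested genes (0.66% higher and 0.189% lower in cKO). At an unadjusted p under 0.05 the number was also 0, against 4.17% of tested genes on the lower and 4.22% on the higher side. DESeq2 and limma-voom called 0 of the 6 as well. The fitted log2 fold change was below 0 in 4 of the 6 genes, against 49.6% of all tested genes. The median in this fit was -0.80 for the 6 genes and 0.01 for all tested genes. With library totals as the scaling, 5 of the 6 were below 0, but the median of all tested genes was then -0.24. The median of the 6 depended on single libraries, since it was -0.02 without control replicate 1 and -0.38 without cKO replicate 1. It was -1.15 without control replicate 2 and -1.07 without cKO replicate 2, where 7 members were tested.

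**Figure D1:**
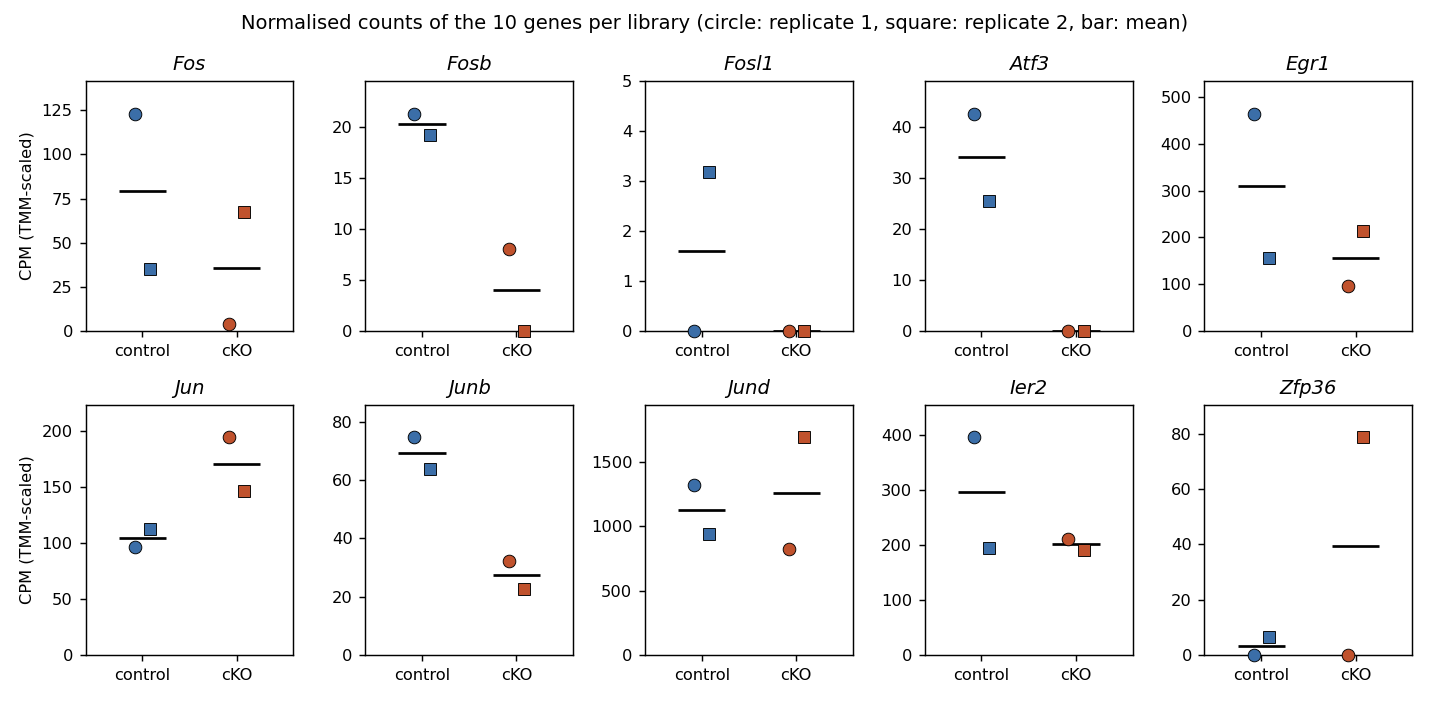
Normalised counts (CPM, vertical axis, each panel on its own linear scale from 0) of the 10 genes in the 4 libraries, with circles for replicate 1, squares for replicate 2 and bars for the mean of each group. Fos, Egr1 and Ier2 were highest in control replicate 1, Junb was lower in both cKO libraries than in both controls, and Jun was higher in both.

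Fos encodes the founding partner of Jun proteins in AP-1 (ENSMUSG00000021250, chromosome 12, 85520664 to 85524047, plus strand, in the table's coordinates). The cKO libraries held 1 and 6 Fos counts (replicates 1 and 2), and the control libraries held 23 and 11. On the CPM scale these were 4.04 and 67.4 in cKO and 123 and 35.1 in control. The groups overlapped, because cKO replicate 2 lay above control replicate 2, and cKO replicate 1 was far below the rest. The mean Fos level was 35.7 ± 44.8 CPM (SD, n = 2) for the knockout and 78.9 ± 61.9 CPM (SD, n = 2) for the control. The fitted log2 fold change was -1.51 with a standard error of 1.06 (edgeR adjusted p 0.809), and its 95% interval ran from -3.80 to 0.77. Single libraries moved this value strongly. Without cKO replicate 2 it was -4.07 (edgeR adjusted p 0.0704), without control replicate 2 it was -2.12, without cKO replicate 1 it was -0.20 and without control replicate 1 it was -0.25.

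Fosb and Fosl1 encode the related proteins FosB and Fra-1, and both fell under the count filter. Fosb (ENSMUSG00000003545, chromosome 7, 19036621 to 19043976, minus strand) was counted 2 and 0 times in the knockout and 4 and 6 times in the controls. The groups did not overlap, and 19.6% of tested genes also had both cKO libraries below both controls. For Fosb 1 cKO library was at 0, where up to 33.7 CPM would be allowed, above both control values (21.3 and 19.2 CPM). Summed over libraries, the ratio of cKO to control was 0.298 with an exact 95% interval of 0.0317 to 1.40, which covers counting error only. Fosl1 (ENSMUSG00000024912, chromosome 19, 5497575 to 5505974, plus strand) gave 1 count, in control replicate 2, and none elsewhere, so no fold is given. Its exons share 1163 bases with those of Ccdc85b, a gene of the opposite strand. No source says if reads were counted by strand.

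The Jun genes encode the obligate partners of Fos proteins. Jun (ENSMUSG00000052684, chromosome 4, 94937271 to 94940459, minus strand) was counted 48 and 13 times in the knockout and 18 and 35 times in the controls. Its levels were 194 and 146 CPM in cKO against 96.1 and 112 CPM in control, so both cKO libraries lay above both controls, as in 18.9% of tested genes. The log2 fold change of Jun was 0.73 with a standard error of 0.48 (edgeR adjusted p 0.779) and a 95% interval from -0.30 to 1.75. Leaving out single libraries gave 0.44 to 0.90. Junb encodes a Jun protein that often acts against c-Jun (ENSMUSG00000052837, chromosome 8, 85701113 to 85705347, minus strand). The knockout libraries held 8 and 2 Junb counts and the controls 14 and 20, or 32.3 and 22.5 CPM against 74.7 and 63.9 CPM. Both cKO libraries lay below both controls, as in 19.6% of tested genes. The value of cKO replicate 2 rests on 2 counts, where 3 counts equal 33.7 CPM, so the closeness of the cKO values is uncertain. The Junb log2 fold change was -1.24 with a standard error of 0.76 (edgeR adjusted p 0.743) and a 95% interval from -2.87 to 0.39. Leaving out single libraries gave -1.63 to -1.07. Junb exons share 173 bases with Prdx2, and Jun exons share 232 bases with Junos, each on the other strand.

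Jund encodes the Jun protein that is expressed broadly without a stimulus, and it gave 78.5% to 90.9% of the Jun-family counts of each library (3' counts, not divided by gene length). Jund (ENSMUSG00000071076, chromosome 8, 71151599 to 71153265, plus strand, a single exon) was counted 204 and 150 times in the knockout and 247 and 293 times in the controls. Its levels were 825 and 1690 CPM in cKO and 1320 and 936 CPM in control, so the cKO values enclosed the control values. The log2 fold change of 0.15 was smaller than its standard error of 0.46 (edgeR adjusted p 0.992), with a 95% interval from -0.85 to 1.14. Its sign depended on the scaling and on single libraries, with -0.15 under library totals, -0.44 without cKO replicate 2 and -0.07 without control replicate 2. Of the 1667 exon bases of Jund, 877 are shared with Gm11175, a gene of the other strand.

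**Figure D2:**
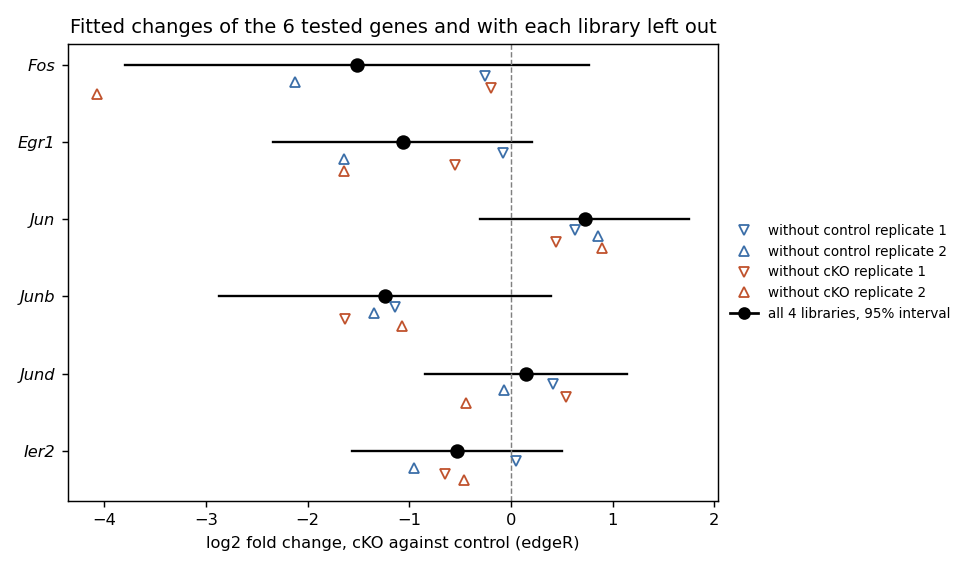
Fitted log2 fold changes, cKO against control (horizontal axis), of the 6 tested genes, with filled circles and 95% intervals from all 4 libraries and open triangles for fits without 1 library. Every interval from all 4 libraries crosses 0, and the estimates of Fos (from -4.07 to -0.20) and Egr1 (from -1.64 to -0.08) move most when a library is left out.

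Counts of the Fos and Jun families can be compared inside a library, where the scaling between libraries plays no part. The Fos family (Fos, Fosb and Fosl1) made up 3 of 263 Fos and Jun counts (1.14%) in the first knockout library, with a 95% Wilson interval of 0.389% to 3.30%. For cKO replicate 2 the share was 6 of 171 (3.51%, 1.62% to 7.44%). The control shares were 27 of 306 (8.82%, 6.13% to 12.5%) in replicate 1 and 18 of 366 (4.92%, 3.13% to 7.64%) in replicate 2. Both cKO shares lay below both control shares, but the interval of cKO replicate 2 overlapped those of both controls, and that of cKO replicate 1 overlapped that of control replicate 2. Only Jun-family counts were numerous. They summed to 260 and 165 for the knockout and to 279 and 348 for the controls, a cKO to control ratio of 1.01 with an exact 95% interval of 0.89 to 1.14 for counting error. The sum follows Jund. Within the family Junb made up 8 of 260 counts (3.08%, 95% Wilson interval 1.57% to 5.95%) in cKO replicate 1. In cKO replicate 2 it made up 2 of 165 (1.21%, 0.333% to 4.31%). The controls held 14 of 279 (5.02%, 3.01% to 8.25%) in replicate 1 and 20 of 348 (5.75%, 3.75% to 8.71%) in replicate 2. Each cKO interval overlapped both control intervals. The share of Jun was 18.5% in cKO replicate 1, above the 6.45% to 10.1% of the other 3 libraries.

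**Figure D3:**
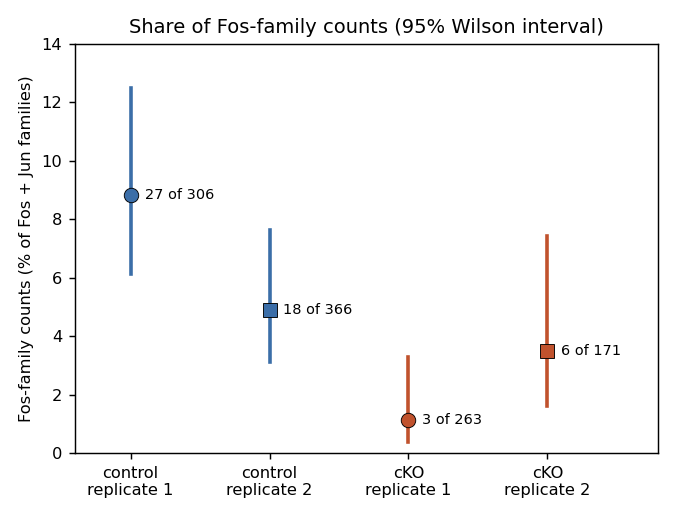
Share of Fos-family counts among all Fos-family and Jun-family counts (percent, vertical axis) in each library, with 95% Wilson intervals for counting error and the counts beside each point. The cKO shares (1.14% and 3.51%) lie below the control shares (8.82% and 4.92%), and the interval of cKO replicate 2 overlaps those of both controls.

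Egr1, a zinc finger transcription factor induced by serum response factor, showed the library order of Fos. Egr1 (ENSMUSG00000038418, chromosome 18, 34992876 to 34998037, plus strand) was counted 24 and 19 times in the knockout and 87 and 49 times in the controls. Its levels were 97.0 and 214 CPM in cKO and 464 and 156 CPM in control, so the groups overlapped and control replicate 1 was far above the rest. The Egr1 log2 fold change was -1.06 with a standard error of 0.59 (edgeR adjusted p 0.716, unadjusted p 0.0945) and a 95% interval from -2.34 to 0.21. It was -0.08 without control replicate 1, -0.55 without cKO replicate 1 and -1.64 without cKO replicate 2 or without control replicate 2. Ier2 encodes a small nuclear protein of the early response (ENSMUSG00000053560, chromosome 8, 85387960 to 85389483, minus strand, a single exon). The knockout libraries held 52 and 17 counts and the controls 74 and 61. The Ier2 levels were 210 and 191 CPM in cKO and 395 and 195 CPM in control, so that 3 libraries were close together and control replicate 1 was high. Its log2 fold change was -0.53 with a standard error of 0.48 (edgeR adjusted p 0.894) and moved to 0.05 when control replicate 1 was left out and to -0.95 when control replicate 2 was.

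Atf3 encodes a stress-induced repressor that pairs with Jun proteins (ENSMUSG00000026628, chromosome 1, 190902493 to 190950236, minus strand). No Atf3 count was found in the knockout libraries, and each control library held 8 counts, or 42.7 and 25.5 CPM in control. The mean Atf3 level of the controls was 1.49 times the mean of the limits that 0 counts allow in the cKO libraries. This bound on the fold leaves out the counting error of the controls, which held 8 counts each. Atf3 fell under the count filter, and when added to the tested genes it did not pass (edgeR adjusted p 0.481, unadjusted p 0.0261). Its unadjusted p was the lowest of the 10 members. Without cKO replicate 2 the bound was 2.81 and without cKO replicate 1 it was 1.01. The depth of cKO replicate 2 limits this result, since 0 counts there allow 33.7 CPM, between the 2 control values.

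Zfp36 encodes tristetraprolin, which binds AU-rich elements and speeds the decay of early response and cytokine mRNAs. Zfp36 (ENSMUSG00000044786, chromosome 7, 28076209 to 28079678, minus strand) was counted 0 and 7 times in the knockout and 0 and 2 times in the controls. Its exons share 125 bases with Gm44710, on the other strand. A single library, cKO replicate 2, held 7 of the 9 counts, and the groups overlapped at 0. That library also had the highest sum of fibroblast markers (Col1a1, Col1a2, Col3a1, Dcn and Lum), at 607 CPM against 36.4 to 160 CPM, with 2 of the 5 tested, 0 called and Lum at 0 in both cKO libraries. Its sum of macrophage and neutrophil markers (Lyz2, Adgre1, Csf1r, Ly6g and Csf3r) was 214 CPM against 12.1 to 54.3 CPM, with 0 of 5 tested. Adgre1, Ly6g and Csf3r were at 0 in both cKO libraries, and the last 2 of them also in both controls. Marker sums of sebocytes (Scd1, Mgst1, Cidea and Plin2) and melanocytes (Dct, Pmel, Tyrp1 and Mlana) were also highest in cKO replicate 2. They were 1790 CPM against 604 to 886 CPM, and 427 CPM against 86.2 to 326 CPM. Of these markers 4 of 4 and 1 of 4 were tested and 0 called. Tyrp1 was at 0 in both cKO libraries, and Pmel and Mlana in both controls. Of all tested genes 31.0% were highest in cKO replicate 2. The part of these cells in the Zfp36 counts was not tested. The summed ratio of cKO to control was 5.21 with an exact 95% interval of 0.992 to 51.4 for counting error. Its relatives were better covered. Zfp36l1 levels were 230 and 146 CPM in cKO and 310 and 201 CPM in control, with a log2 fold change of -0.39 (edgeR adjusted p 0.941). Zfp36l2 had 93.0 and 67.4 CPM against 176 and 86.2 CPM, with -0.63 (edgeR adjusted p 0.894).

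Control replicate 1 had the highest value in 4 of the 6 tested genes (Fos, Egr1, Ier2 and Junb), and in 21.7% of all tested genes. Fos and Egr1 had the same order of libraries, which was cKO replicate 1 lowest, then control replicate 2, cKO replicate 2 and control replicate 1. Of all tested genes 3.44% had that order. The summed level of 5 Langerhans cell markers (Cd207, Cd74, H2-Ab1, H2-Aa and Epcam) followed it too, at 1330, 2020, 3240 and 3420 CPM in that order of libraries. Of these markers 4 were tested, 0 were called, and none was at 0 in a whole group. The marker sums of skeletal muscle (Acta1, Myh4, Ckm, Tnnc2 and Pvalb) separated the groups as Junb did, at 16.2 and 67.4 CPM in cKO and 1160 and 833 CPM in control. Of these 5 markers 4 were called lower, against 0.189% of all tested genes, and Myh4 and Pvalb were at 0 in both cKO libraries. Hair follicle markers (Krt17, Krt75, Krt71, Krt35 and Tchh) separated them as well, at 1880 and 2150 CPM in cKO and 5120 and 6710 CPM in control, with 3 of 5 markers tested and 0 called. Krt35 was at 0 in all 4 libraries and Krt71 in both cKO libraries. The T cell markers (Cd3e, Cd3g, Cd3d, Thy1, Ptprc and Trdc) summed to 239 and 180 CPM in cKO. Their control sums were 331 and 246 CPM, so the groups did not overlap, but cKO replicate 1 lay close to control replicate 2. The summed ratio of cKO to control was 0.803, with an exact interval of 0.598 to 1.07 for counting error, which includes 1. Of single tested genes 19.6% also had both cKO libraries below both controls. Of the 6 T cell markers 3 were tested and 0 called, and Trdc was at 0 in both cKO libraries. The part of these cells in the values of the 10 genes was not tested. In bulk RNA, fewer cells of a type and less RNA per cell cannot be told apart. Keratinocyte markers were abundant in all 4 libraries, with suprabasal sums (Krt1, Krt10, Krtdap, Sbsn and Dsg1a) of 7540 to 16000 CPM. The basal sums (Krt5, Krt14, Trp63, Col17a1, Itga6 and Itgb4) were 8200 and 4700 CPM in cKO and 3190 and 2830 CPM in control, separated in the direction of Jun, with 6 of 6 markers tested and 0 called. Their part in the Jun values was not tested. Endothelial markers (Pecam1, Cdh5 and Kdr) summed to at most 4.04 CPM.

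The genes most alike in pattern were found by the root-mean-square difference of log2(CPM + 10), centred over the 4 libraries, among the 3567 other genes whose mean reached 50 CPM. Nearest to Fos was Plekhf2, at a difference of 0.229, where the median gene was at 1.27. Plekhf2 had 4.04 and 67.4 CPM in cKO and 107 and 51.1 CPM in control. Naxe and Srp14 followed, at 0.356 and 0.361. Nearest to the mean of the 6 tested members were Emp3, Pfdn5 and Selenot, at 0.0266 to 0.041, against a median gene at 0.597. The likeness rests on 4 libraries, and none of these genes was called.

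Among 43 other rapid-response genes 13 were tested, and 0 were called in either direction. Their fitted changes were below 0 in 10 of 13, with a median of -0.48 against 0.01 over all tested genes. The median was -0.18 without cKO replicate 1 (-0.16 over all genes), -0.78 without cKO replicate 2 (-0.04 over all genes) and -0.92 with limma-voom. Klf4, a differentiation factor of epidermis, had 825 and 517 CPM in cKO and 560 and 786 CPM in control, a log2 fold change of 0.01 (edgeR adjusted p 0.998). Nfkbia, the inhibitor that holds NF-kappaB in the cytoplasm, had 295 and 191 CPM in cKO against 427 and 549 CPM in control, with -0.97 (edgeR adjusted p 0.581). Btg1, an antiproliferative factor, had 404 and 393 CPM against 315 and 278 CPM, with 0.43 (edgeR adjusted p 0.902). For Nfkbia and Btg1 the groups did not overlap, and neither passed the test. Of the 13 genes 6 had both cKO libraries below both controls and 1 had both above, against 19.6% and 18.9% of all tested genes. At an unadjusted p under 0.05 (edgeR) 2 of the 13 were lower and 0 higher, against 4.17% and 4.22% of all tested genes.

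Among 18 other AP-1 and related leucine zipper genes 7 were tested and 0 were called, with a median of -0.23 that was -0.45 without cKO replicate 1 and also without control replicate 1. Mafg, a small Maf protein gene, had a log2 fold change of -0.24 and did not pass (edgeR adjusted p 0.979). Maf had 133 and 45.0 CPM in cKO and 229 and 243 CPM in control, a log2 fold change of -1.26 (edgeR adjusted p 0.494). Atf5, a stress-responsive relative of Atf4 that was singled out after its values were seen, was counted 19 times in each knockout library and 1 and 4 times in the controls. Its levels were 76.8 and 214 CPM against 5.34 and 12.8 CPM. Its log2 fold change was 3.73 with a standard error of 0.85 and missed the threshold (edgeR adjusted p 0.0677). Atf5 passed with DESeq2 (adjusted p 0.0479), with a mean of 10 CPM as the filter (edgeR adjusted p 0.0299) and with no count filter (edgeR adjusted p 0.00947). With limma-voom the value was 3.25 and did not pass (adjusted p 0.585). Of the fits without 1 library, Atf5 passed without cKO replicate 1 (4.32, edgeR adjusted p 0.000457) and without control replicate 2 (4.52, edgeR adjusted p 0.0315). It did not pass without cKO replicate 2 (2.93, edgeR adjusted p 0.413) or without control replicate 1 (3.37, edgeR adjusted p 0.0886).

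**Figure D4:**
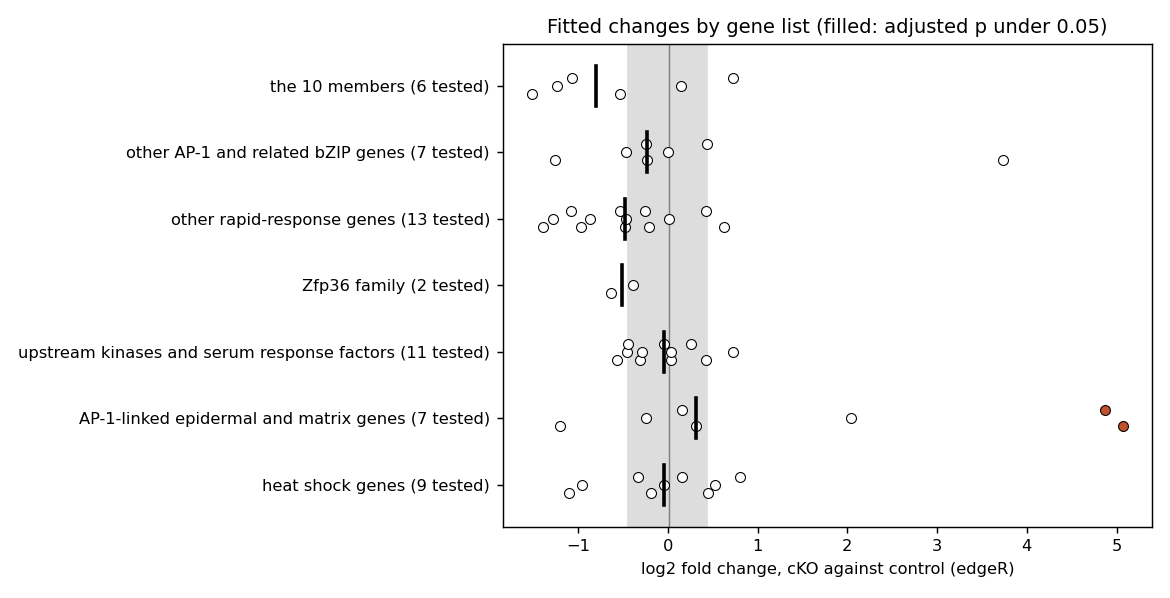
Fitted log2 fold changes, cKO against control (horizontal axis), of the tested genes in each list, with black bars for list medians and the grey band for the interquartile range of all tested genes (-0.44 to 0.44). The filled points, Flg and Krt6a, passed the test; all 6 tested AP-1 and immediate early genes are open.

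The kinases and factors upstream of these genes showed no called change. Of 21 listed genes 11 were tested, with a median of -0.04 and a range from -0.57 to 0.72. Hras, a GTPase at the head of the ERK cascade, had a log2 fold change of -0.57, the ERK gene Mapk3 had -0.04 and its activator Map2k2 had 0.03 (edgeR adjusted p 0.835 to 0.997). The heat shock list, a further stress response, had 9 of 10 genes tested, 0 called and a median of -0.04. Leaving out a cKO library gave 0.37 (replicate 1) or -0.24 (replicate 2), and leaving out a control library gave -0.13 (replicate 1) or 0.36 (replicate 2). Hsp90aa1 had -0.33, Hspa8 had 0.53 and the small heat shock gene Hspb1 had -1.10 (edgeR adjusted p 0.666 to 0.965).

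Genes of epidermis and matrix with known AP-1 elements did not all move in the same direction. Of 19 listed genes 7 were tested, with a median of 0.31, and 5 of the 7 were above 0 and 2 below. The test called 2 higher and 0 lower, against 0.66% and 0.189% of all tested genes. At an unadjusted p under 0.05 (edgeR) 3 were higher and 1 lower, against 4.22% and 4.17%. The median was 1.78 without control replicate 2, 1.08 without control replicate 1, 0.81 without cKO replicate 2 and 0.47 without cKO replicate 1. Flg, the filaggrin precursor of the granular layer, rose from 107 and 313 CPM in control to 8970 and 5380 CPM in cKO (log2 fold change 5.07, edgeR adjusted p 0.000593). Krt6a, a keratin of wounded epidermis, rose from 21.3 and 28.7 CPM to 473 and 1080 CPM (log2 fold change 4.87, edgeR adjusted p 0.00062). Krt6a has a near-identical relative, Krt6b, and how reads shared between copies were counted is not stated. Lor had 4560 and 1910 CPM in cKO and 758 and 4470 CPM in control, a log2 fold change of 0.31 (edgeR adjusted p 0.988). Ivl, the involucrin gene whose promoter is a classical AP-1 target, had 615 and 528 CPM in cKO and 1370 and 1270 CPM in control. Its log2 fold change was -1.20 with a standard error of 0.42 and did not pass the test (edgeR adjusted p 0.359, unadjusted p 0.0125). Both cKO libraries lay below both controls for Ivl, as in 19.6% of tested genes.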

How the data were processed

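Total RNA of mouse dorsal epidermis was sequenced from the 3' end with the QIAseq UPX kit in 2 cKO and 2 control libraries, per the labels. The deposited table holds raw counts per gene. Trim Galore 0.6.7, Trimmomatic 0.39, cutadapt 3.7, STAR 2.7.10a, featureCounts 2.0.1 and the build GRCm39 are named, without roles, in the submitters' processing notes. How molecular identifiers, strand and reads with several alignments were handled is not given in the sources used here. Gene coordinates are those of the table. Promoter sequences are from RefSeq on GRCm38.p6 and were not combined with them.

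Samples were grouped by title. Counts were filtered with filterByExpr (minimum count 10, minimum total 15), scaled with TMM and fitted with edgeR 4.0.16 (R 4.3.3) by glmQLFit and glmQLFTest, with a single term for genotype. P-values were adjusted over the 4243 genes kept, which held 87.6% of counts, and called under 0.05. Standard errors are the absolute log2 fold change over the root of F. Members under the filter were tested in a fit to which they were added. Ratios of summed counts have exact conditional binomial intervals. Alternatives were other scalings and filters, a replicate block, DESeq2 1.42.0, limma-voom (limma 3.58.1) and leaving out each library. The fit was tested on simulated data. All 10 members are named, with the called and the 3 most abundant tested genes of each list and the 3 nearest in pattern; 1 gene under this rule is not reported here. The members and lists were chosen with earlier results of these data known.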

Additional observations from a re-analysis of the deposited data

How the results depend on the processing

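None of the 6 tested members passed the threshold in the 12 alternatives listed under the processing or in the crossed block added after seeing the data. Fos, Egr1, Jun and Junb kept their direction in all 13, with values that moved with single libraries as given above. The sign changed for 3 genes. Jund (0.15) was -0.15 with library totals and ranged from -0.44 (without cKO replicate 2) to 0.54 when single libraries were left out, with -0.07 without control replicate 2. Ier2 (-0.53) ranged from -0.95 to 0.05 (without control replicate 1). Zfp36 (2.79, added to the tested genes) was -0.17 with limma-voom and ranged from -3.09 (without cKO replicate 2) to 5.56. The cause was not tested. Library totals shifted the median log2 fold change of all tested genes to -0.24. Over all genes, 28 were called higher and 8 lower. The numbers were 49 and 26 without a count filter and 12 and 3 with limma-voom. With library totals 15 were lower and a 10 CPM mean as the filter gave 15 lower. Leaving out single libraries gave 34 to 59 higher and 8 to 34 lower. The replicate numbers do not show that samples were paired (correlation of same-numbered deviations -0.20 across genes). A replicate block gave 16 higher and 1 lower, and crossed pairing gave 90 higher and 57 lower, with 0 members called in both. Depth limits Fosb, Fosl1, Atf3 and Zfp36 most, since 3 counts in cKO replicate 2 equal 33.7 CPM.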
